A study of Homo sapiens with 16 samples.

Results

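Ribosome biogenesis factors are the proteins that make ribosomes without staying in them, and 38 of their genes are described here in HEK293, a human cell line that was set up from embryonic kidney. The members were chosen with earlier results of these data known. They were named by symbol, and each symbol matched 1 gene of the 60671 in the deposited count table. All 38 were among the 19316 genes that passed the filter on low counts. The groups, with 2 libraries each, were cells given 1 of 6 cloned LINC01016 transcripts (T1, T2, CU1, CU2, CU1ENC and CU1ENU), cells given the empty vector, and untransfected parental cells. The LINC01016 gene makes a non-coding RNA found in testis, and the submitters state that HEK293 cells do not transcribe it. Per the labels' protocols, each plasmid was pcDNA3.0, 5 micrograms were delivered with Lipofectamine 3000, and RNA was taken 48 hours later. The transcripts were thus expressed from a plasmid, and how many cells of a plate took it up is not given in the labels. Separate cultures are not named in the labels, so the spread behind each p-value may be only technical.

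Ribosomes are assembled mainly in the nucleolus. RNA polymerase I makes a long precursor RNA, small nucleolar ribonucleoproteins (snoRNPs) guide its modification, and separate sets of factors fold, cut and export the small and the large subunit. In dividing cells these genes are expressed in step with growth, and many of them are known targets of the Myc family of transcription factors, which bind the E-box.

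Library totals ran from 15040770 to 17255935 counts, and the 38 genes together took between 0.482% and 0.768% of them. LINC01016 had 0 counts in parental cells, at most 1 count in an empty vector library, and between 40405 and 192244 counts in each isoform library. EYA1, a marker of HEK293, was present in every library with at least 243 counts. UMOD of kidney tubule had 0 counts in all 16 libraries, PTPRC of leukocytes at most 2 and the epidermal keratin KRT5 at most 6. Other markers of these lists were present: LRP2 of kidney tubule had 75 to 260 counts in a library and COL1A1 of fibroblasts 580 to 814, more than EYA1, while COL1A2 had at most 5. Some markers moved between empty vector and parental cells. NEFL, a further marker of HEK293, averaged 116 CPM (counts scaled to library size, with TMM factors) in empty vector and 155 CPM in parental cells and fell (log2 fold change -0.42 ± 0.12, adjusted p = 0.0290). CD14, the only 1 of 8 blood cell markers that passed the low-count filter, averaged 2.81 CPM in empty vector and 1.23 CPM in parental cells and rose (adjusted p = 0.0289). With the replicate block, described further on, LHX1 of the HEK293 markers was also higher (0.44 ± 0.22 without the block, adjusted p = 0.000427 with it) and NEFM lower (-0.40 ± 0.35 without it, adjusted p = 0.0102 with it). Of 6 fibroblast markers 4 passed the filter and LUM fell (-1.10 ± 0.32, adjusted p = 0.0298). COL3A1 averaged 2.46 CPM in empty vector and 10.9 CPM in parental cells (-2.14 ± 0.69, adjusted p = 0.0574, and 4.1e-07 with the block), and COL1A1 45.7 CPM in empty vector and 38.6 CPM in parental cells (0.24 ± 0.15, adjusted p = 0.315, and 0.0421 with the block). Of 6 kidney tubule markers 3 passed the filter and CUBN rose (1.07 ± 0.34, adjusted p = 0.0469), while LRP2 averaged 6.90 CPM in empty vector and 14.6 CPM in parental cells (-1.08 ± 0.37, adjusted p = 0.0618, and 1.02e-05 with the block). The 3 summed to 9.8 to 12.9 CPM in empty vector, against 15.8 to 18.4 CPM in parental libraries. Their part in the results was not tested. These are bulk libraries, so a change in the number of cells that express a gene and a change per cell cannot be told apart.

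The promoters are shown because 24 of the 38 genes rose in empty vector against parental cells, where 9.41% of tested genes did, as described after them. RefSeq promoters on GRCh38.p14, from 250 bases before to 50 bases after their start site, were found for 32 of the 38 genes. The first listed promoter of each gene was used. RRP12, NOP58, NOLC1, RRP1B, RRS1 and BOP1 had none. The E-box CACGTG, which reads the same on both strands, stood in 14 of the 32 (43.8%), against 9.74% of the 12920 promoters of tested genes and 7.43% of all 27305 promoters. In all 14 it lay within 50 bases of the start, as it did in 39.7% of the tested genes' promoters that held one. The ETS motif CCGGAAG or its reverse complement CTTCCGG was in 12 of 32 (37.5%), against 17.3% of tested genes. The GC box GGGCGG or CCGCCC, which can overlap other motifs, was in 24 of 32 (75%), against 68.4%. The AP-1 motif TGACTCA or TGAGTCA and the composite motif bound by ATF4 and CHOP, TGATGCAA or TTGCATCA, were found in 0 of the 32, against 3.24% and 0.519% of tested genes. Median GC content was 63.8% in the members and 65% in the tested genes. Of the 20 searched genes that rose in empty vector, 11 held an E-box. So did NOL6, NOP2 and FBL, which did not pass. Whether the E-box went with the rise was not tested. A match is a run of letters in this window and says nothing about binding. The 4 promoters below belong to the called genes of lowest p that held an E-box, given 5′ to 3′ on the strand of the gene with the E-box in capitals. They are NOP14 (chr4:2963357-2963656, minus strand), UTP4 (chr16:69132399-69132698, plus strand), NOC3L (chr10:94362890-94363189, minus strand) and UTP20 (chr12:101279855-101280154, plus strand).
NOP14: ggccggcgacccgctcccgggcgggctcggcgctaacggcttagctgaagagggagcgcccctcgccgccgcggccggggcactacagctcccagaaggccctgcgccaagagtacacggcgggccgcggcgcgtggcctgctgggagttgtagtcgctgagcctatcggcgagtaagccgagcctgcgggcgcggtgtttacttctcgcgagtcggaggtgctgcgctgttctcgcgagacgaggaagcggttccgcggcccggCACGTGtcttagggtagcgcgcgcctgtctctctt
UTP4: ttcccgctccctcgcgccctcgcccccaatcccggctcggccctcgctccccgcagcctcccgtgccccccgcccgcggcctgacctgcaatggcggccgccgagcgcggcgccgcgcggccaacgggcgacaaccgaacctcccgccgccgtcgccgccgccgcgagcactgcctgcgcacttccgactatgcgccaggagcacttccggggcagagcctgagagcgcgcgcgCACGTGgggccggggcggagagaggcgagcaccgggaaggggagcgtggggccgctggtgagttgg
NOC3L: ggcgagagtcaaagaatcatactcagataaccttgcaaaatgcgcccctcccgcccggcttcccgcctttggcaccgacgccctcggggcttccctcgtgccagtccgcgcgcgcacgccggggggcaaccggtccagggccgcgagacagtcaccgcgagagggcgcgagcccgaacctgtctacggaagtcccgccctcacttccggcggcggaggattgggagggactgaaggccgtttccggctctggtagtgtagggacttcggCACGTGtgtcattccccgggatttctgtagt
UTP20: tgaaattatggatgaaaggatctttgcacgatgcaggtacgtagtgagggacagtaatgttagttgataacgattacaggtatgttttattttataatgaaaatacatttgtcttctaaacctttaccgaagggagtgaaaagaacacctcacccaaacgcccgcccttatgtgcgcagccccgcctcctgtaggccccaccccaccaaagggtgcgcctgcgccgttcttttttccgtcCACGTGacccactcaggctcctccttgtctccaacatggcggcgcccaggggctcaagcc
The E-box began 16 bases before the start site of the promoter in UTP4 and 10 bases before it in UTP20. In the deposited annotation the UTP4 gene starts further upstream, at 69131291, outside the window shown. In NOP14 it began at base 16 of the transcript and in NOC3L at base 20.

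Empty vector against parental cells asks what transfection with a plasmid without a LINC01016 transcript went with. Parental cells were untransfected, so the reagent, the plasmid and any difference in handling cannot be told apart. Of the 38 genes 24 rose and 0 fell (edgeR, Benjamini-Hochberg adjusted p under 0.05 over all tested genes), where 9.41% of all tested genes rose and 6.60% fell. The 38 were chosen with earlier results of these data known, so this count is not an independent check. RRP12 rose the most, 2.61-fold, and FBL, the methyltransferase of the snoRNPs, had the smallest difference, 1.04-fold. The median log2 fold change of the 38 was 0.523, against 0.012 over all tested genes, and all 38 values were positive where 51.2% of all genes were. Both empty vector libraries lay above both parental libraries in 34 of the 38, which holds for 30.1% of tested genes, and in 0 of the 38 did both lie below.

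**Figure D1:**
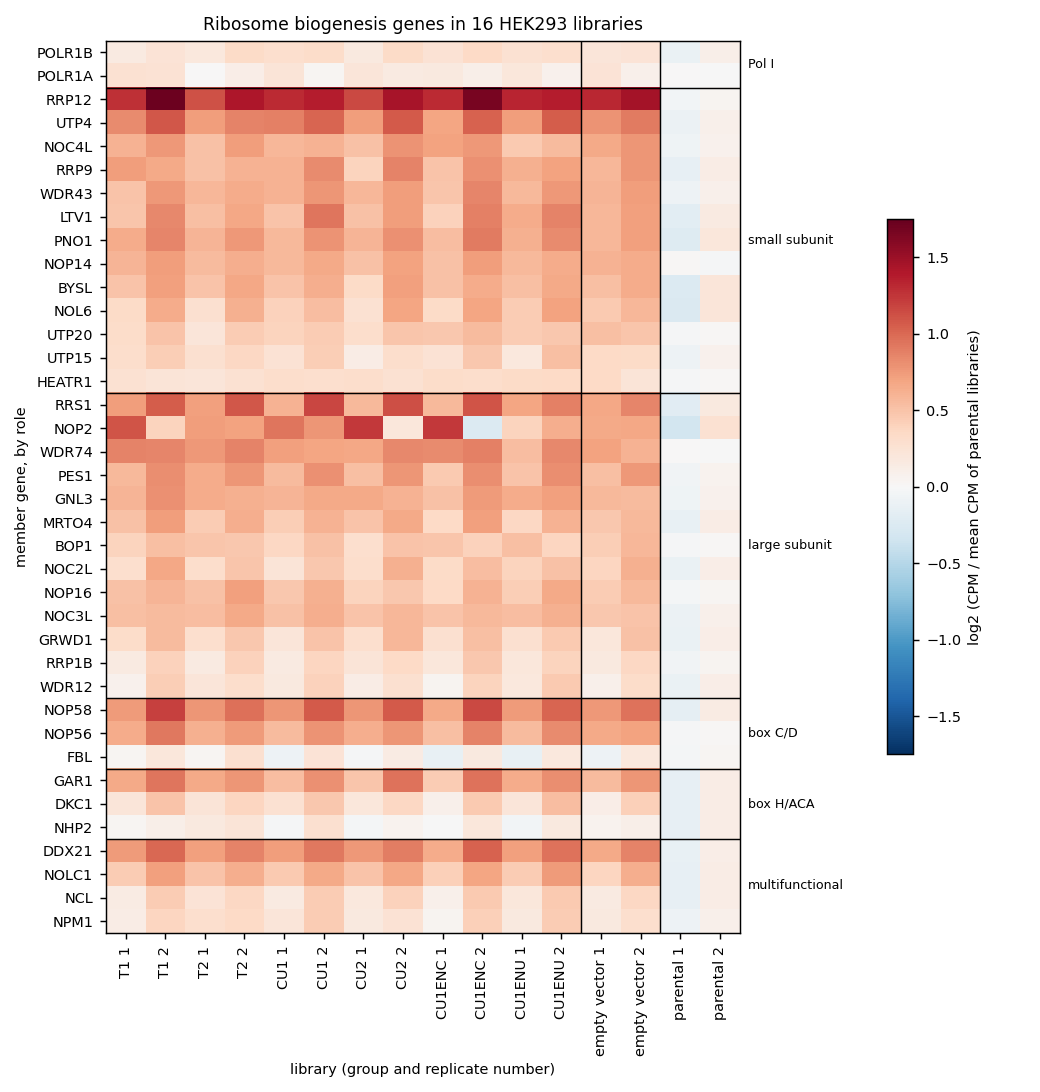
Level of each of the 38 genes (rows, by role) in each of the 16 libraries (columns), as the log2 ratio of TMM-scaled CPM to the mean of the 2 parental libraries. RRP12 is the darkest row in every transfected library except CU2 replicate 1, where NOP2, with few counts, is darker, while FBL and NHP2 stay near the parental colour.

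Small subunit assembly genes rose in 11 of 13 cases, the most of any role, where 9.41% of tested genes rose. RRP12, a repeat protein needed in yeast for export of ribosomal particles from the nucleus, lies on chromosome 10 from 97356358 to 97426076 (minus strand, coordinates of the deposited annotation, GRCh38.p13). Its level was 96.1 and 105 CPM in empty vector libraries, against 37.2 and 39.7 CPM in parental libraries. The 12 isoform libraries ran from 83.1 to 126.6 CPM with a median of 98.3, so no transfected library came near the parental ones. The log2 fold change of empty vector over parental was 1.39 ± 0.16 (SE, adjusted p = 0.000171).

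NOP14, a core protein of the small subunit processome, the large particle in which the precursor is first cut, had 97.6 and 101.1 CPM in empty vector libraries, against 65.3 and 63.3 CPM in parental libraries. NOC4L, which in yeast binds the NOP14 protein, had 42.7 and 45.8 CPM in empty vector libraries, against 25.6 and 28.3 CPM in parental libraries. For this pair the groups did not overlap, and the log2 fold changes were 0.63 ± 0.09 (adjusted p = 0.000819) and 0.72 ± 0.11 (adjusted p = 0.000977). UTP4, a WD-repeat scaffold that joins the precursor early, had 95.3 and 104.5 CPM in empty vector libraries, against 51.7 and 59.1 CPM in parental libraries (log2 fold change 0.85 ± 0.15, adjusted p = 0.00235). UTP20, a very long scaffold protein of the same particle, had 66.0 and 64.3 CPM in empty vector libraries, against 45.2 and 46.4 CPM in parental libraries (0.51 ± 0.10, adjusted p = 0.00329). Isoform libraries of UTP4 ran from 89.6 to 117.3 CPM and those of UTP20 from 53.0 to 67.2 CPM, above both parental libraries in each case.

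Here and for the genes that follow, a pair of means stands for empty vector against parental cells. Further small subunit genes that rose were WDR43 (157 against 99.4 CPM, log2 fold change 0.66 ± 0.13) and HEATR1 (142 against 116 CPM, 0.29 ± 0.07), which act with UTP4 on the nascent precursor, and RRP9 (27.6 against 17.2 CPM, 0.68 ± 0.16), a protein of the snoRNP that pairs with it. The late factors BYSL (81.7 against 54.4 CPM, 0.59 ± 0.15), LTV1 (65.7 against 41.9 CPM, 0.65 ± 0.19) and PNO1 (68.5 against 43.8 CPM, 0.65 ± 0.15), which travel with the maturing small subunit, rose as well. Of this role UTP15 (34.9 against 27.5 CPM, 0.34 ± 0.13, adjusted p = 0.0816) and NOL6 (68.0 against 47.3 CPM, 0.52 ± 0.19, adjusted p = 0.0813) did not pass. HEATR1 had the smallest change of any gene that passed, 1.22-fold.

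**Figure D2:**
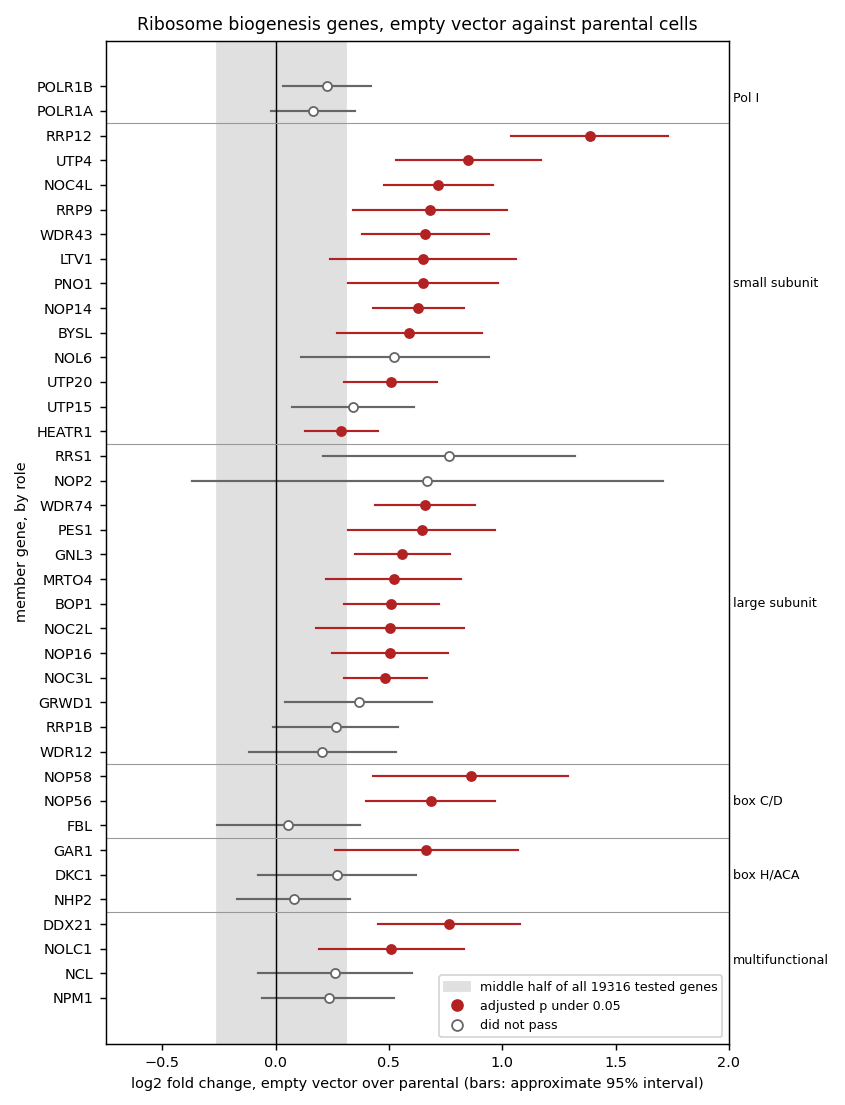
Log2 fold change of empty vector over parental for each gene, with its approximate 95% interval from the fit; filled points passed an adjusted p of 0.05, and the grey band runs between the quartiles of all tested genes. The 24 filled points lie between 0.29 for HEATR1 and 1.39 for RRP12.

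Large subunit assembly genes rose in 8 of 13 cases, where 9.41% of tested genes rose. WDR74, which works with the NVL ATPase that strips factors from the large subunit, had 43.7 and 40.7 CPM in empty vector libraries, against 26.8 and 26.6 CPM in parental libraries (log2 fold change 0.66 ± 0.10, adjusted p = 0.00103). GNL3, or nucleostemin, a nucleolar GTPase known from stem and tumour cells, had 165 and 163 CPM in empty vector libraries, against 105 and 117 CPM in parental libraries (0.56 ± 0.10, adjusted p = 0.00181). NOC3L, which escorts large subunit precursors in yeast, had 66.8 and 68.4 CPM in empty vector libraries, against 45.1 and 51.6 CPM in parental libraries (0.48 ± 0.09, adjusted p = 0.00244). None of these overlapped between the groups, and all 12 isoform libraries lay above both parental libraries for each, at 39.0 CPM or more for WDR74, 159 or more for GNL3 and 68.1 or more for NOC3L.

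BOP1 (82.5 against 58.0 CPM, 0.51 ± 0.10), PES1 (196 against 126 CPM, 0.65 ± 0.15) and WDR12 (0.21 ± 0.15) encode the PeBoW complex, which is needed for processing of the large subunit RNA. BOP1 and PES1 rose, while WDR12 did not pass (adjusted p = 0.387): it had 68.2 and 80.2 CPM in empty vector libraries, against 59.2 and 69.5 CPM in parental libraries, so these groups overlapped. NOP16 (39.8 against 28.0 CPM, 0.50 ± 0.12), NOC2L (238 against 167 CPM, 0.51 ± 0.15), the partner of NOC3L in yeast, and MRTO4 (109 against 75.7 CPM, 0.52 ± 0.14), which holds the place of a stalk protein on the immature subunit, also rose. RRS1 (33.5 against 19.7 CPM, 0.76 ± 0.25, adjusted p = 0.0609), GRWD1 (115 against 89.2 CPM, 0.37 ± 0.15, adjusted p = 0.120) and RRP1B (195 against 162 CPM, 0.27 ± 0.13, adjusted p = 0.180) did not pass.

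NOP2, a cytosine methyltransferase of ribosomal RNA, was counted at 1.53 and 1.54 CPM in empty vector libraries, against 0.770 and 1.16 CPM in parental libraries, and did not pass (0.67 ± 0.49, adjusted p = 0.385). In the deposited annotation 54.4% of its exonic bases are shared on the same strand with ENSG00000285238, and over all 16 libraries NOP2 had 388 counts and the other gene 3. The NOP2 count is therefore uncertain. LTV1 shared 34.7% of its exonic bases with 2 other genes of its strand, RRS1 11.3% and WDR74 10.1%, and every other member under 10%. The 49 annotated NPM1 pseudogenes together held 0.813% as many counts as NPM1, and reads that fit both may have gone to either.

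Among the 6 snoRNP genes NOP56, NOP58 and GAR1 rose, while FBL, DKC1 and NHP2 did not pass. NOP56, a core scaffold of the box C/D snoRNPs that methylate ribosomal RNA, had 404 and 419 CPM in empty vector libraries, against 252 and 260.3 CPM in parental libraries (log2 fold change 0.68 ± 0.13, adjusted p = 0.00363). NOP58, its partner, averaged 230.4 CPM in empty vector and 127 CPM in parental cells and rose as well (0.86 ± 0.20, adjusted p = 0.0117). FBL, the methyltransferase of the same particle, had 279 and 337 CPM in empty vector libraries, against 289.5 and 303 CPM in parental libraries. Its groups overlapped, and the change was 0.06 ± 0.15 (adjusted p = 0.839, 95% interval -0.26 to 0.37).

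GAR1, of the box H/ACA snoRNPs that make pseudouridine, had 41.9 and 48.6 CPM in empty vector libraries, against 25.8 and 31.3 CPM in parental libraries, without overlap (0.66 ± 0.19, adjusted p = 0.0301). NHP2, a core protein of the same particles, had 122 and 126 CPM in empty vector libraries, against 106 and 129 CPM in parental libraries (0.08 ± 0.12, adjusted p = 0.700, 95% interval -0.17 to 0.33). DKC1, the pseudouridine synthase whose mutation causes dyskeratosis congenita, averaged 159 CPM in empty vector and 132 CPM in parental cells (0.27 ± 0.16, adjusted p = 0.285). The difference between members of a particle was not itself tested.

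The helicase gene DDX21, which links RNA polymerase I to processing, had 461 and 530.2 CPM in empty vector libraries, against 266 and 317 CPM in parental libraries (0.77 ± 0.15, adjusted p = 0.00341). NOLC1, a chaperone of snoRNPs, averaged 326 CPM in empty vector and 229 CPM in parental cells and rose by 0.51 ± 0.15 (adjusted p = 0.0320). The abundant nucleolar proteins NCL (1225 against 1021 CPM, 0.26 ± 0.16, adjusted p = 0.291) and NPM1 (988 against 840.3 CPM, 0.23 ± 0.14, adjusted p = 0.268) did not pass. POLR1A and POLR1B encode the large subunits of RNA polymerase I that form its active centre. POLR1A had 89.9 and 81.2 CPM in empty vector libraries, against 76.4 and 76.2 CPM in parental libraries (0.17 ± 0.09, adjusted p = 0.220). POLR1B had 72.9 and 73.9 CPM in empty vector libraries, against 58.1 and 67.5 CPM in parental libraries (0.23 ± 0.09, adjusted p = 0.115). Groups did not overlap for either gene, yet neither passed.

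**Figure D3:**
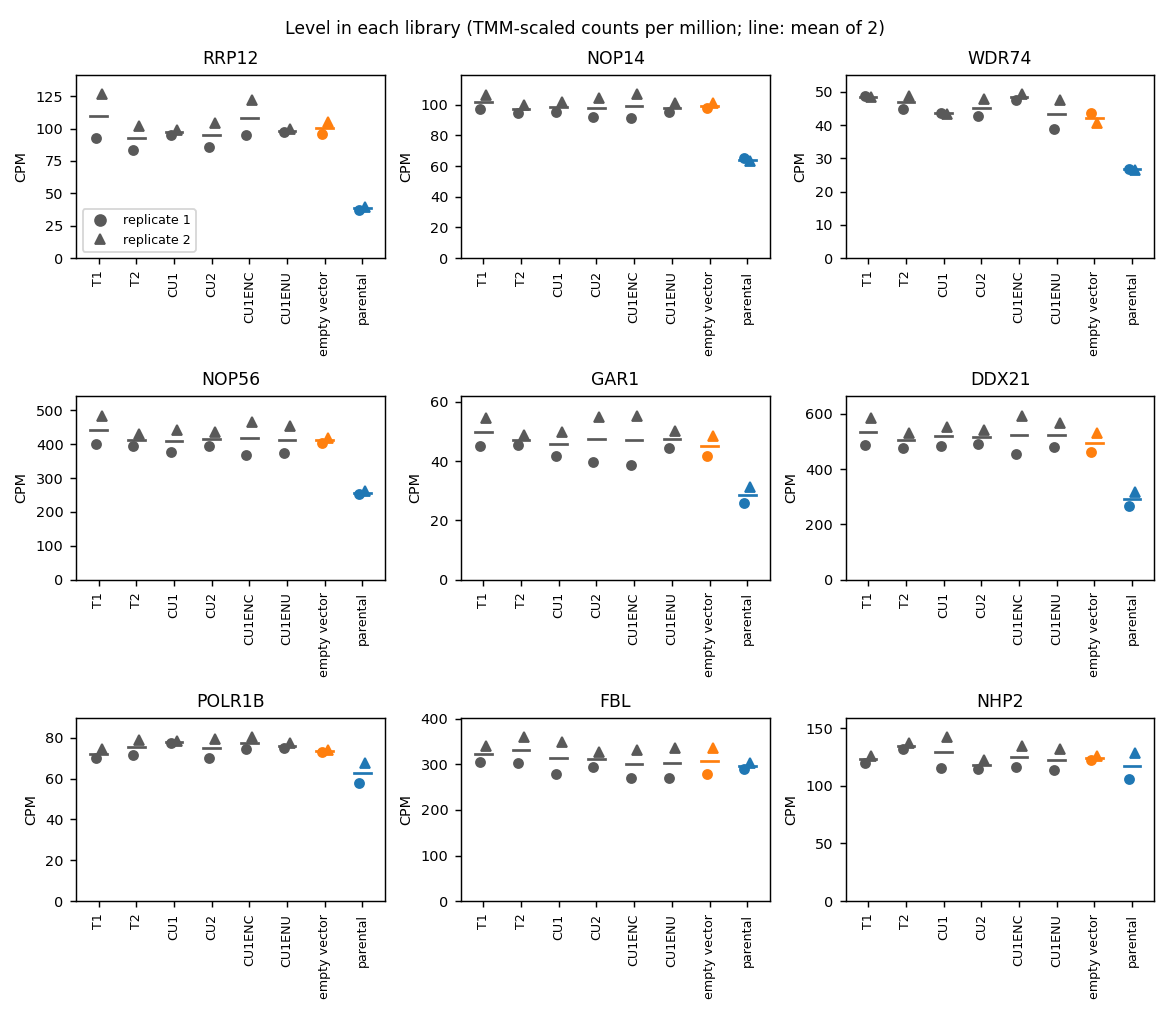
TMM-scaled CPM of 9 genes in each library, by group, with circles for replicate 1, triangles for replicate 2 and a line at the mean of the 2; the axes start at 0. Parental libraries lie below all transfected ones for RRP12, NOP14, WDR74, NOP56, GAR1, DDX21 and POLR1B, and overlap with them for FBL and NHP2.

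Per length, the 38 genes spanned a wide range. In CPM per kilobase of exon (RPKM) NPM1 measured 258 ± 16.7 in empty vector and 219.5 ± 19.6 in parental cells (SD, n = 2 each), the highest of all. NCL followed with 179.6 ± 18.6 in empty vector and 149.7 ± 20.7 in parental cells, then FBL with 144 ± 19.0 in empty vector and 139 ± 4.59 in parental cells. In parental cells NCL and FBL did not differ beyond their spread. RRP12 stood at rank 36 of 38 in parental cells, with 11.8 ± 0.737 RPKM in empty vector and 4.51 ± 0.212 in parental cells, between UTP20 (6.49 ± 0.118 in empty vector and 4.57 ± 0.0852 in parental cells) and UTP15 (5.51 ± 0.00549 in empty vector and 4.35 ± 0.351 in parental cells). In parental cells these 3 did not differ beyond their spread. Across the 38 genes the log2 fold change and the mean log2 RPKM had a Spearman rho of -0.03 and a Pearson r of -0.16, both over values from the same 16 libraries.

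Same-numbered replicates deviated together, as given in the processing notes, and with the replicate number as a block 34 of the 38 rose and 0 fell, where 18.4% of tested genes rose and 15.9% fell. The 10 genes that passed there and not without the block were POLR1B, UTP15, NOL6, WDR12, GRWD1, RRP1B, RRS1, DKC1, NCL and NPM1, with adjusted p from 3.67e-07 for RRS1 to 0.0207 for WDR12. FBL (adjusted p = 0.583), NHP2 (0.341), NOP2 (0.267) and POLR1A (0.0623) did not pass there either. Within replicate 1 the empty vector library exceeded the parental one in 37 of 38 genes, FBL being the exception at -0.05, and within replicate 2 in 37 of 38, with NHP2 at -0.03. The share over all genes was 51.1% in both. Median log2 ratios of the 38 were 0.58 in replicate 1 and 0.49 in replicate 2.

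Leaving out 1 library changed how many passed. Without parental replicate 1 the count was 10, where 802 of 20073 tested genes rose, and without empty vector replicate 2 it was 13, where 4.39% rose. It was 18 without parental replicate 2 (4.45% of tested genes) and 19 without empty vector replicate 1 (5.18%), and no gene fell in any of these fits. RRP12, NOP14, NOC4L, UTP4, UTP20, WDR74, GNL3, NOC3L, BOP1 and NOP56 kept their calls in all 16 such fits. Without parental replicate 1 the calls of the 14 other genes were lost, with adjusted p from 0.0543 for DDX21 and 0.0574 for WDR43 to 0.263 for NOLC1; HEATR1 had its highest, 0.138, without empty vector replicate 1. Of those 14, all but DDX21, WDR43 and HEATR1 also lost the call without empty vector replicate 2. HEATR1, LTV1, NOP16, NOC2L, GAR1 and NOLC1 lost it without parental replicate 2, and HEATR1, LTV1, NOC2L, MRTO4 and GAR1 without empty vector replicate 1. LTV1 lost it also without T2 replicate 1, T2 replicate 2 or CU1ENU replicate 2, and NOC2L without the last of these. With 1 library left in a group, its spread was taken from the other groups. With all libraries, other settings gave 24 to 26 genes, where the share of tested genes that rose was 9.10% with RLE size factors, 10.5% with library totals, 9.20% in DESeq2, 5.09% without the low-count filter, 11.1% above a mean CPM of 1 and 9.25% with only the 4 libraries compared.

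The mean of the 7 transfected groups was then set against parental cells, a comparison that shares its parental libraries with the one above. Of the 38 genes 30 rose and 0 fell, where 15.4% of tested genes rose and 14.3% fell. The 6 that passed here and not in empty vector alone were POLR1B (log2 fold change 0.26 ± 0.07), UTP15 (0.33 ± 0.10), NOL6 (0.51 ± 0.15), RRS1 (0.86 ± 0.20), GRWD1 (0.40 ± 0.12) and RRP1B (0.29 ± 0.10). POLR1A, WDR12, NOP2, FBL, DKC1, NHP2, NCL and NPM1 did not pass, and their values ran from 0.08 ± 0.11 for FBL to 0.72 ± 0.38 for NOP2. All 14 transfected libraries lay above both parental ones in 31 of 38 genes, which holds for 16.8% of tested genes, and in 0 of the 38 did all lie below. Without parental replicate 1 the count that rose was 16, where 6.36% of tested genes rose.

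Each isoform group gave similar counts against parental cells, although these comparisons share the parental libraries. With T1 26 genes rose, where 10.9% of tested genes rose and 8.58% fell. The T2 count was 23 (7.26% rose and 4.53% fell), and that of CU1 was 25 (8.36% rose and 5.07% fell). For CU2 25 rose (9.57% rose and 6.88% fell), as did 25 for CU1ENC (10.0% rose and 7.37% fell) and 23 for CU1ENU (8.77% rose and 6.18% fell). None of the 38 fell in any of these 6 comparisons. Both T2 libraries lay above both parental ones in all 38 genes (29.3% of tested genes). That held for 36 genes with T1 (30.0%), CU1 (28.5%) and CU1ENU (29.1%), for 35 with CU2 (29.9%) and for 31 with CU1ENC (28.9%). In T2 the replicate block raised the count to 36, where 17.0% of tested genes rose and 14.2% fell. RRP12 had log2 fold changes between 1.27 ± 0.16 in T2 and 1.51 ± 0.16 in T1, and FBL between 0.02 ± 0.15 in CU1ENC and 0.16 ± 0.15 in T2. Without parental replicate 1 the T1 count was 10 (5.37% of tested genes rose), that of T2 5 (2.22%), of CU1 7 (2.73%), of CU2 9 (843 of 20073 genes), of CU1ENC 11 (4.62%) and of CU1ENU 8 (3.29%). Without its own replicate 2, T1 had 10 (4.24%), T2 5 (2.33%), CU1 9 (3.22%), CU2 9 (3.50%), CU1ENC 11 (4.01%) and CU1ENU 8 (3.13%). Without T2 replicate 1 the T2 count was 15 (3.14%).

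Against empty vector, the comparison that asks what a LINC01016 transcript adds to the plasmid, 0 of the 38 genes passed in any of the 6 isoforms. Of all tested genes 0.00518% passed with CU2 and 0.0104% with each of the other five. None of the 38 reached an unadjusted p under 0.05 in edgeR, and DESeq2 called 0 as well; with the replicate block 0 passed, and between 0 and 2 genes an isoform had an unadjusted p under 0.05. Median log2 fold changes of the 38 ran from 0.015 in CU2 to 0.052 in T1, and single values from -0.21 to 0.20. The 95% interval lay inside a 1.5-fold change either way for 37 of 38 genes with CU1ENU and for 36 of 38 with each of the other five, where between 52.9% and 54.4% of tested genes did so.

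WDR74 measured 48.7 and 48.4 CPM in T1 libraries and 47.5 and 49.3 CPM in CU1ENC libraries, against 43.7 and 40.7 CPM in empty vector libraries. UTP20 measured 53.0 and 62.1 CPM in T2 libraries and 56.7 and 64.0 CPM in CU2 libraries, against 66.0 and 64.3 CPM in empty vector libraries. NOC4L measured 40.3 and 41.2 CPM in CU1 libraries and 37.1 and 39.3 CPM in CU1ENU libraries, against 42.7 and 45.8 CPM in empty vector libraries. WDR74 had the lowest p in T1 (log2 fold change 0.20 ± 0.10, 95% interval -0.01 to 0.42) and in CU1ENC (0.20 ± 0.10, -0.02 to 0.41). UTP20 had it in T2 (-0.18 ± 0.10, -0.38 to 0.03) and in CU2 (-0.11 ± 0.10, -0.32 to 0.10). NOC4L had it in CU1 (-0.12 ± 0.11, -0.35 to 0.12) and in CU1ENU (-0.21 ± 0.11, -0.45 to 0.02). In edgeR without the replicate block every one of these had an adjusted p of 1. With the 6 isoforms averaged and set against empty vector, 0 of 38 passed, where 0.0104% of tested genes did, and 25 of the 38 values were positive, where 48.4% of all genes were. WDR74 again had the lowest p (0.12 ± 0.08, unadjusted p = 0.140). In the F-test over the 6 isoforms 0 of 38 passed, where 0% of tested genes did, and the lowest unadjusted p was 0.371, for POLR1A. A p that misses the threshold does not show that the isoforms act alike.

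**Figure D4:**
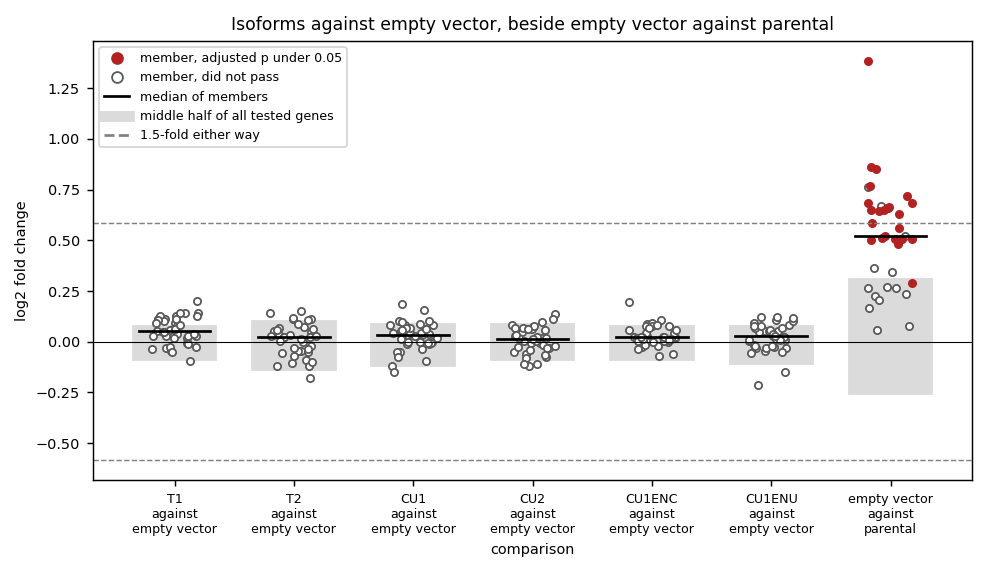
Log2 fold change of each gene in the 6 comparisons of an isoform with empty vector and, at the right, in empty vector against parental cells; bars mark the median, grey boxes the range between quartiles of all tested genes and dashed lines a 1.5-fold change. In the isoform comparisons all points lie between -0.21 and 0.20, while at the right they lie between 0.06 and 1.39.

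Replicate numbers also separated these genes. In the fit with the block, replicate 2 was higher than replicate 1 in 32 of the 38 genes and lower in 0 (edgeR, adjusted p under 0.05), where 18.0% of tested genes were higher and 17.9% lower. No label says what the number marks, and this comparison was added after the data were seen. Same-numbered libraries deviated together, so those of 1 number may not be independent. If each number marks 1 run, these p-values do not measure the spread between runs. RRS1, which helps load a small ribosomal RNA onto the large subunit in yeast, had the largest difference, 0.39 ± 0.05 on the log2 scale (adjusted p = 1.53e-07). NOP58 had the lowest p (0.32 ± 0.03, adjusted p = 2.19e-09), followed by NCL (0.26 ± 0.03, adjusted p = 5.44e-09). FBL (0.23 ± 0.03), DKC1 (0.26 ± 0.03), NHP2 (0.16 ± 0.03), NPM1 (0.19 ± 0.03) and WDR12 (0.24 ± 0.03), which did not pass in empty vector against parental cells without the block, were all higher in replicate 2; with the block FBL and NHP2 did not pass there, and the others did.

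In 28 of the 38 genes replicate 2 exceeded replicate 1 in all 8 groups, which holds for 11.5% of tested genes. The median log2 difference of the 38 was positive in every group, 0.20 in parental cells, 0.13 in empty vector and from 0.14 in T2 to 0.29 in CU1ENC among isoforms, where the median of all genes was at or below 0.00. POLR1A (-0.06 ± 0.03), HEATR1 (-0.02 ± 0.03), BOP1 (0.05 ± 0.04), WDR74 (0.06 ± 0.04), GNL3 (0.08 ± 0.03) and NOP2 (-0.34 ± 0.21) did not pass. RRP12, the gene with the largest change against parental cells, differed by 0.22 ± 0.04. Restricted to the 14 transfected libraries, 29 genes were higher in replicate 2 and 0 lower, where 17.5% of tested genes were higher.

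**Figure D5:**
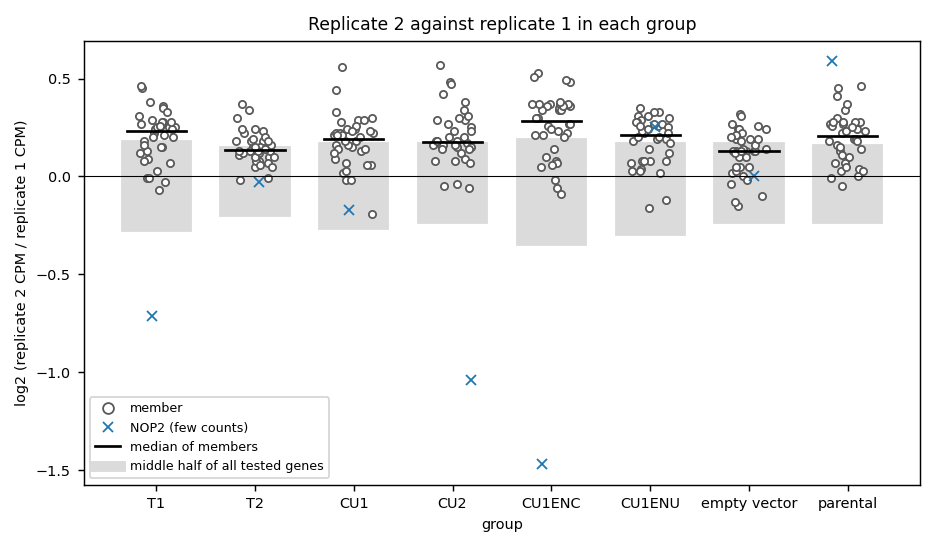
Log2 ratio of replicate 2 to replicate 1 CPM for each gene, by group, with a bar at the median and a grey box between the quartiles of all tested genes. The median lies between 0.13 in empty vector and 0.29 in CU1ENC; NOP2, marked by a cross, has few counts and spreads widely.

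Other genes of the pathway came from 5 lists drawn from general knowledge, but with earlier results of these data known. They are therefore not an independent check. In empty vector against parental cells 55 of the 143 rose and 0 fell, where 9.41% of tested genes rose. Of 13 other RNA polymerase I genes 5 rose, led by TAF1D (1.55 ± 0.11, adjusted p = 1.80e-06) and TAF1A (1.01 ± 0.17), subunits of its selectivity factor, and by POLR1C (0.40 ± 0.09). TAF1D, which is also a snoRNA host gene, averaged 169 ± 9.25 CPM in empty vector and 57.8 ± 7.48 CPM in parental cells (SD, n = 2 each). Of 48 other small subunit genes 19 rose, with DDX10, a helicase (0.96 ± 0.14), AATF (0.67 ± 0.12) and WDR46 (0.85 ± 0.16) leading in p. Of 56 other large subunit genes 27 rose, led by MYBBP1A (0.87 ± 0.13), NLE1 (0.60 ± 0.10) and NVL (0.64 ± 0.11), the ATPase that works with WDR74.

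Of 12 other snoRNP genes 2 rose, where 9.41% of tested genes rose, the assembly factors NUFIP1 (0.79 ± 0.13) and RUVBL1 (0.47 ± 0.11); NAF1 had the next lowest p (0.45 ± 0.15, adjusted p = 0.0621). Of 14 genes of the RNA exosome, which trims ribosomal RNA precursors and degrades many other RNAs, 2 rose as well, EXOSC8 (0.42 ± 0.11) and EXOSC9 (0.30 ± 0.09), while EXOSC4 did not pass (0.30 ± 0.13, adjusted p = 0.131). In both lists 2 genes is near the share over all tested genes. With the block 100 of the 143 rose and 1 fell, NOP53 (-0.18 ± 0.10 without the block, adjusted p = 0.0264 with it), where 18.4% of tested genes rose. Against empty vector 0 of the 143 passed in any isoform, where between 0.00518% and 0.0104% of tested genes did.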

How the data were processed

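RNA of 16 HEK293 libraries was measured by strand-marked paired-end sequencing. The authors deposited a table of raw read counts, one row a gene, which featureCounts 2.0.1 made from read pairs over Ensembl release 101 exons with strand option 2, per the file headers. HISAT2 and GRCh38.p13 are named in the submitters' processing notes. How reads with several places were treated is not given in the sources used here, so near-identical copies are uncertain. Groups came from sample titles, and columns were matched by sample descriptions. Identifiers gave a symbol for 60401 of 60671 genes.

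Genes were kept with edgeR 4.0.16 filterByExpr (minimum count 10, minimum total 15; R 4.3.3) and scaled by TMM factors from 0.974 to 1.03. Robust quasi-likelihood F-tests were fitted with 8 group means over 16 libraries (8 residual degrees of freedom), with Benjamini-Hochberg adjustment over 19316 genes. The procedure was tested on simulated data with no replicate effect and with less spread than the fit without the block showed. That is an easier case than these data. SE was taken from the fold change and its F value, and 95% intervals are approximate. RPKM divides TMM-scaled CPM by deposited exonic length. An exact permutation test of 2 against 2 cannot give a p below 0.333. Replicates differed beyond sampling noise in every group (chi-square per degree of freedom from 6.76 to 18.9), so each library was kept.

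Replicates are numbered 1 and 2 in the labels. Deviations from group means correlated between same-numbered libraries, with r from 0.162 to 0.441 over 28 pairs of groups, so the numbers were treated as pairing, on the data alone. The block left 7 residual degrees of freedom. Alternatives were the block, DESeq2 1.42.0, other scalings and filters, and leaving out each library. Members and lists were chosen with earlier results of these data known. Values in each library compared are given for the 8 genes of lowest and 4 of highest p in empty vector against parental. The same holds for the lowest p of each role there, and for the lowest p of each isoform against empty vector. From each other list the 3 of lowest p and any that fell are given. One marker gene is not reported here.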

Additional observations from a re-analysis of the deposited data

How the results depend on the processing

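No gene of the 38 changed direction in empty vector against parental cells under another tool, scaling or filter, or with the replicate block. FBL ranged from -0.08 without empty vector replicate 2 to 0.19 without empty vector replicate 1, and NHP2 from -0.07 without parental replicate 1 to 0.21 without parental replicate 2, and neither passed in any fit. The count that rose in empty vector was 24 with RLE size factors, 26 with library totals only, 26 without a low-count filter, 24 above a mean CPM of 1, 25 with only the 4 libraries compared and 26 in DESeq2. Leaving out 1 library gave 10 to 25 genes up in empty vector, 16 to 33 in the mean of the transfected groups, 10 to 27 in T1, 5 to 23 in T2, 7 to 25 in CU1, 9 to 25 in CU2, 11 to 27 in CU1ENC and 8 to 25 in CU1ENU, all against parental cells. It gave 0 in every comparison with empty vector and in the F-test, as did every other alternative run. Each range against parental cells had its low end without parental replicate 1. There a smaller share of all tested genes rose as well than with all libraries, as given above for each comparison. The ranges alone therefore do not show a drop particular to the 38 genes. With the replicate block T2 had 36 genes up against parental cells, in place of 23. The block moved no other count of the 38 by over 1.5 times. Without parental replicate 1 fewer genes passed overall as well (802 up of 20073), and the cause of the lower member counts was not tested. HEATR1 also lost its call without the low-count filter and with only the 4 libraries compared. RRS1 gained one in DESeq2 (adjusted p = 0.0154) and with library totals only, without the filter, with only the 4 libraries, and without either CU1 library or either CU2 library. NOP2 had the fewest counts of the 38, with 388 over all libraries, and its count is uncertain, as described above.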

Other observations

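The summed level of the 38 genes without NPM1 and NCL was 4432 and 4910 CPM in empty vector libraries, 4302 to 5285 CPM in the 12 isoform libraries, and 3068 and 3476 CPM in parental libraries. In each group the library numbered 2 had the higher sum. Of the 143 other pathway genes 94 were higher and 5 lower in replicate 2 than in replicate 1 in the fit with the block, where 18.0% of tested genes were higher and 17.9% lower. Across the 38 genes the coefficient of the 7 transfected groups against parental cells and that of the replicate number, from 1 fit on the same libraries, had a Spearman rho of 0.23 and a Pearson r of 0.17. What the replicate number stands for was not tested.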
